A study of Homo sapiens with 2 samples.

Results

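The genes of cholesterol and fatty acid synthesis were compared between a RUNX2 knockdown clone and a control clone of SKOV3, a human ovarian adenocarcinoma cell line. The set holds 32 listed genes: enzymes of sterol and fatty acid synthesis, the regulators of the SREBP transcription factors, and a few genes of lipid uptake and transport. Array probes were assigned to a gene when their RefSeq accession belonged to it, which gave 49 probes for 31 of the 32 genes, among 16153 named and measured genes in all. ACLY, which makes cytosolic acetyl-CoA from citrate, had no probe by this rule, and its expression was not analysed here. The brightest probe of a gene stands for it, and other probes of a gene are given where they differ.

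The compared clones came from SKOV3 cells infected with lentivirus of the pLKO.1-puro vector and kept under puromycin. The clone cl-sh3 carries a shRNA against RUNX2, a transcription factor best known from bone formation, and the mock-transfected control clone carries a scramble sequence that matches no mammalian one. Each group is therefore 1 stable clone, and the knockdown group rests on 1 shRNA. The same RNA pair was hybridized 2 times on 1 slide of Agilent whole human genome arrays, with cl-sh3 in Cy5 and control in Cy3 in hybridization 1 and the dyes reversed in hybridization 2. This is 1 replicate, so the clones cannot be tested against each other and no p-value is given. Differences between the hybridizations show technical error only, and a difference between these clones cannot be told apart from a difference between any pair of clones.

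Cholesterol is built from acetyl-CoA through mevalonate, squalene and lanosterol, and fatty acids are built from the same acetyl-CoA through malonyl-CoA. Both routes are switched on by the SREBP transcription factors, which sit in the endoplasmic reticulum membrane bound to SCAP and are held there by INSIG proteins while sterols are plentiful. When sterols run low, SCAP carries the SREBP to the Golgi, where it is cut and its free part goes to the nucleus to bind sterol regulatory elements in the promoters of these enzymes. Cancer cells often run these routes at a high level to supply membranes.

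Median spot intensity was 451 in Cy3 and 902.5 in Cy5 of hybridization 1, and 507.5 and 684 in hybridization 2, over local backgrounds between 43 and 166.5. Between 77.3% and 93.9% of gene spots lay well above background in a channel. The log2 ratios of the hybridizations correlated across all genes with a Pearson r of 0.58, as a description over genes that share the same slide and RNA. The brightest RUNX2 probe checked the labels, with log2 ratios of cl-sh3 over control of -2.04 in hybridization 1 and -1.30 in hybridization 2. A dimmer RUNX2 probe gave 0.17 and -0.13. The 6 epithelial markers had log2 intensities from 10.99 to 16.41, while those of leukocytes, endothelium and fibroblasts had 7.36 to 9.96. The mean log2 ratios ran from -0.66 to 0.83 for the epithelial markers, a wider range than that of the synthesis genes below, and from -0.15 to 0.18 for the others.

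The cholesterol and fatty acid synthesis genes differed little between the clones. Of the 31 measured genes, 0 met the rule used to select genes in the study, a difference of 2-fold or more the same way in both hybridizations. Over all 16153 genes, 22 met it as higher in cl-sh3 (0.136%) and 83 as lower (0.514%), a split that became 44 higher and 72 lower when the arrays were only centred on their median. At these shares a set of this size would hold few such genes in any case, so the 0 does not set the synthesis genes apart. In all 31 genes both RNAs were well above background in both hybridizations, so no member was lost to the filter on dim probes.

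At the smaller fold of 1.5, 1 gene was higher in cl-sh3 in both hybridizations, SC5D, against 1.6% of all genes. None of the set was at least 1.5-fold lower, against 2.6% of all genes. By sign alone, 13 of the 31 genes (41.9%) were higher in both hybridizations, beside 30.9% of all genes, and 5 (16.1%) were lower in both, beside 28.4%. The other 13 genes (41.9%) changed sign between the hybridizations, as did 40.7% of all genes. The median of the mean log2 ratios was 0.07 over the set and 0.01 over all genes. The means of single genes ran from -0.36 for INSIG2 to 0.77 for SC5D. Of these means 19 (61.3%) lay above 0, beside 52.9% of all genes, and 12 below.

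Because most of these genes are bright, the counts were also set against bright genes only. Of the 22 members brighter than the median gene, 9 (40.9%) were higher in both hybridizations and 4 (18.2%) lower in both. Of the 8076 genes of that kind, 31.5% were higher in both and 33.9% lower in both.

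The hybridizations did not give the set the same level. The median log2 ratio of the set was -0.01 in hybridization 1 and 0.19 in hybridization 2, while that of all genes was 0.01 and 0.00. The ratio was higher in hybridization 2 than in hybridization 1 for 25 of the 31 genes (80.6%), beside 56.2% of all genes and 59.4% of the bright ones. The hybridizations differ in which dye each clone carried, and the part of the dye in these values was not tested. Single members differed between the hybridizations by a median of 0.25 on the log2 scale, close to the 0.23 of all genes.

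**Figure D1:**
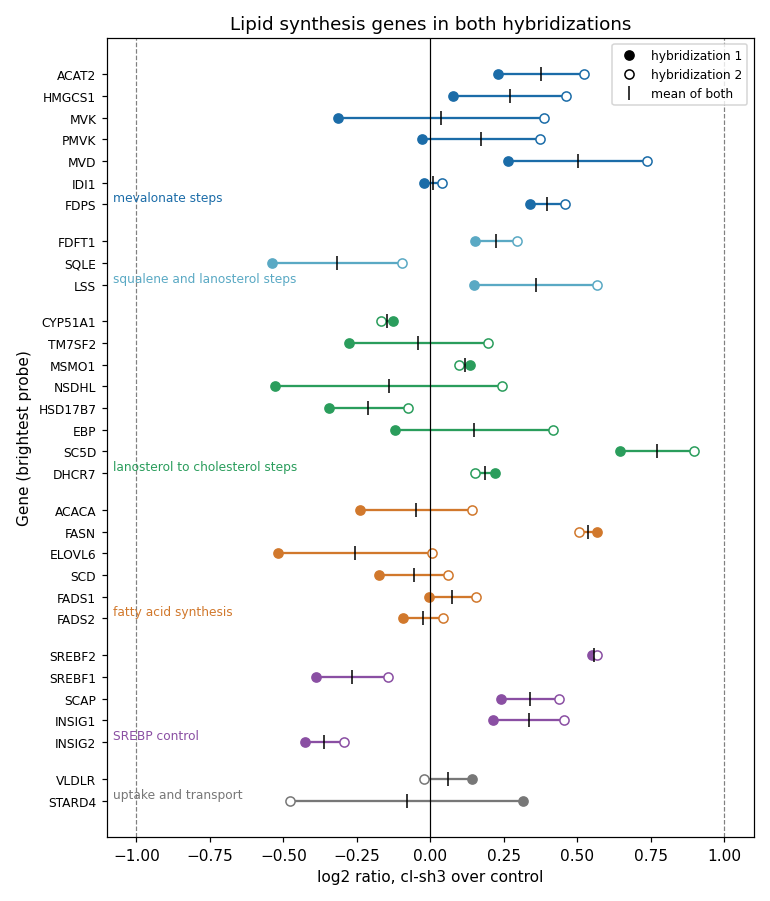
Log2 ratio of cl-sh3 over control for the brightest probe of the 31 measured genes, ordered by their step in the route. Filled points are hybridization 1, open points hybridization 2, ticks their mean, and dashed lines 2-fold. No gene lies past 2-fold, SC5D lies farthest to the right with 0.64 and 0.90, and 25 open points lie to the right of their filled point.

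The first steps, from acetyl-CoA to farnesyl diphosphate, lay above 0 by their means but not in each hybridization. All 7 measured genes of these steps had a mean log2 ratio above 0 (IDI1 only 0.01), beside 52.9% of all genes. The median was 0.27. That median was 0.08 in hybridization 1 and 0.46 in hybridization 2. Here 4 genes (57.1%) were higher in both hybridizations, beside 30.9% of all genes, while 0 were lower in both, beside 28.4%. None reached 1.5-fold in both.

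MVD, the decarboxylase that makes isopentenyl diphosphate, had the largest mean of these genes. Its normalized intensity in hybridization 1 was 895 in cl-sh3 and 745 in control, and in hybridization 2 it was 974 and 584. The log2 ratios were 0.26 and 0.74, so the second hybridization gave most of the mean of 0.50. FDPS, which joins isoprene units into farnesyl diphosphate, had 27017 in cl-sh3 and 21370 in control in hybridization 1, and 26184 and 19050 in hybridization 2. Its ratios of 0.34 and 0.46 lay close together, and its mean of 0.40 corresponds to 1.32-fold.

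ACAT2, the thiolase that condenses acetyl-CoA, had log2 ratios of 0.23 and 0.52, and its dimmer probe had 0.34 and 0.52. HMGCS1, the synthase that makes HMG-CoA, had 0.08 and 0.46 on its brightest probe and 0.46 and 0.79 on a dimmer one. Both probes of each gene lay above 0 in both hybridizations. MVK and PMVK, the kinases that phosphorylate mevalonate, changed sign between the hybridizations, with -0.31 and 0.39 for MVK and -0.03 and 0.37 for PMVK. IDI1, the isomerase that makes dimethylallyl diphosphate, lay at -0.02 and 0.04.

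The steps from farnesyl diphosphate to lanosterol did not move one way. FDFT1, which makes squalene, had log2 ratios of 0.15 and 0.29, and LSS, which closes squalene epoxide to lanosterol, had 0.15 and 0.57. SQLE, the epoxidase between them and a control point of the route, was lower in both hybridizations. Its intensity was 5214 in cl-sh3 and 7566 in control in hybridization 1, and 5437 and 5811 in hybridization 2. The log2 ratios of SQLE were -0.54 and -0.10, so the size of the difference rests mainly on hybridization 1.

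Of the 8 measured genes that turn lanosterol into cholesterol, 3 (37.5%) were higher in both hybridizations, 2 (25%) were lower in both and 3 changed sign. Over all genes 30.9% were higher and 28.4% lower in both. The median log2 ratio of these 8 genes was 0.04, with -0.12 in hybridization 1 and 0.17 in hybridization 2. SC5D, the desaturase of the penultimate sterol steps, stood out among them.

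SC5D had an intensity of 28574 in cl-sh3 and 18282 in control in hybridization 1, and 28014 and 15022 in hybridization 2. The log2 ratios were 0.64 and 0.90, and their mean of 0.77 corresponds to 1.71-fold, at percentile 98.9 of all genes. A second bright probe gave 17727 against 8657 and 16308 against 8608. These are log2 ratios of 1.03 and 0.92, of which the first alone passes 2-fold. The third and dimmest SC5D probe gave -0.06 and 0.44, so the probes of this gene covered a range of 0.79, the widest in the set. With the mean of all its probes SC5D no longer reached 1.5-fold in both hybridizations.

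DHCR7, the reductase of the last step, had log2 ratios of 0.22 and 0.15. MSMO1, which removes the methyl groups at carbon 4 together with NSDHL and HSD17B7, had 0.14 and 0.10. NSDHL, the dehydrogenase of that complex, had -0.53 and 0.24, among the widest gaps between the hybridizations. HSD17B7, its reductase, had -0.34 and -0.08, and a dimmer probe had -0.07 and -0.22. HSD17B7 has near-identical pseudogene copies, so its value is uncertain.

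CYP51A1, the lanosterol demethylase, had -0.13 and -0.17 on its brightest probe and -0.14 and 0.30 on the other, whose mean of 0.08 has the opposite sign. EBP, the sterol isomerase, had -0.12 and 0.42. TM7SF2, a sterol reductase, had -0.28 and 0.19, and its second probe had 0.11 and 0.12.

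Over the 18 sterol enzymes together the median log2 ratio was 0.16 (0.03 in hybridization 1 and 0.33 in hybridization 2). Of them 9 (50%) were higher in both hybridizations, beside 30.9% of all genes, and 3 (16.7%) lower in both, beside 28.4%.

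The fatty acid enzymes lay around 0, with FASN as the exception. The median log2 ratio of the 6 measured genes was -0.04 (-0.13 in hybridization 1 and 0.10 in hybridization 2), and its sign turned to 0.01 with median centring, 0.02 with the scanner software's log ratios or the deposited ratios, and 0.11 with the mean of all probes. Only FASN was higher in both hybridizations, 0 were lower in both and 5 changed sign. Over all genes 30.9% were higher in both, 28.4% lower in both and 40.7% changed sign.

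FASN, the multi-enzyme chain that builds palmitate from malonyl-CoA, was dim. Its intensity was 483 in cl-sh3 and 326 in control in hybridization 1, and 431 and 304 in hybridization 2, where the values include an offset of 50. The log2 ratios of 0.57 and 0.50 differed by only 0.06, and their mean of 0.54 corresponds to 1.45-fold. Only 1 probe measured FASN.

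ACACA, which supplies malonyl-CoA, had log2 ratios of -0.24 and 0.14 on its brightest probe, and 0.31 and 0.11 on a second one. ELOVL6, the elongase that takes palmitate to stearate, had -0.52 and 0.01. SCD, the desaturase that makes oleate, had -0.17 and 0.06, and its 2 dimmer probes had means of 0.06 and 0.40. The dimmest of the SCD probes was not well above background for both RNAs in both hybridizations. FADS1 and FADS2, the desaturases of long polyunsaturated fatty acids, had -0.01 and 0.16, and -0.09 and 0.04. A second FADS1 probe lay higher, at 0.48 and 0.26.

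**Figure D2:**
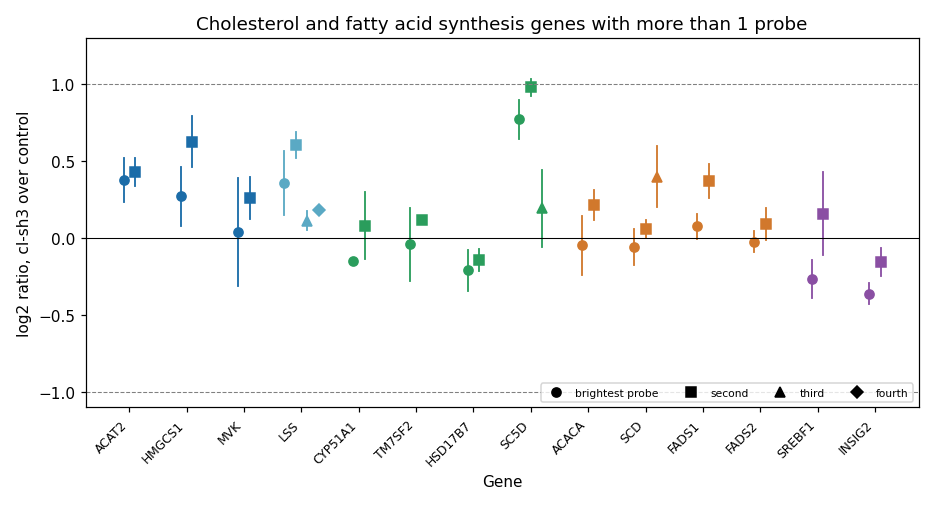
Mean log2 ratio of cl-sh3 over control for each probe of the 14 genes with more than 1 probe, with lines from hybridization 1 to hybridization 2, and dashed lines at 2-fold. In 6 genes the means of the probes differ in sign, in 6 all lie above 0 and in 2 all lie below 0, and no gene's probes lie over 2-fold apart.

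Among the 14 genes with more than 1 probe, 6 had probe means of opposite sign: ACACA, CYP51A1, FADS2, SCD, SREBF1 and TM7SF2. The probes of 6 genes all had means above 0 and those of HSD17B7 and INSIG2 all had means below 0. The probes of a gene covered a median range of 0.24 on the log2 scale, as wide as the usual difference between hybridizations. The other 17 genes were measured by 1 probe.

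The genes that control SREBP lay on both sides of 0. SREBF2, which encodes the SREBP that mainly drives sterol genes, was higher in cl-sh3, while SREBF1, which encodes the one that mainly drives fatty acid genes, was lower in both hybridizations. Of the INSIG genes, INSIG1 was higher and INSIG2 lower in both. SCAP, the escort of SREBP, was higher in both.

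SREBF2 had an intensity of 4497 in cl-sh3 and 3074 in control in hybridization 1, and 4573 and 3088 in hybridization 2. The log2 ratios were 0.55 and 0.57, the closest pair of values in the set with a difference of 0.02, and the mean of 0.56 corresponds to 1.47-fold. Both ratios lay just under the fold of 1.5, on the 1 probe that measured SREBF2.

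SREBF1 had 8073 in cl-sh3 and 10570 in control in hybridization 1, and 9680 and 10693 in hybridization 2. Its log2 ratios were -0.39 and -0.14, with a mean of -0.27. A much dimmer SREBF1 probe gave -0.11 and 0.43, whose mean of 0.16 has the opposite sign.

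SCAP had 7132 in cl-sh3 and 6029 in control in hybridization 1, and 5645 and 4163 in hybridization 2, which gave log2 ratios of 0.24 and 0.44. Control in hybridization 1 lay above cl-sh3 in hybridization 2. Each array was normalized within itself only, so that overlap across hybridizations does not compare the clones. INSIG1, itself a classical SREBP target, had 672 and 579 in hybridization 1 and 706 and 515 in hybridization 2. Its log2 ratios were 0.21 and 0.46.

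INSIG2, which is less dependent on SREBP than INSIG1, had 2655 in cl-sh3 and 3571 in control in hybridization 1, and 2411 and 2957 in hybridization 2. Its log2 ratios of -0.43 and -0.29 gave the lowest mean of the set, -0.36, or 0.779 of the control level. A dimmer INSIG2 probe lay below 0 in both hybridizations as well, at -0.25 and -0.06.

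Uptake and transport were represented by VLDLR, a receptor for triglyceride-rich lipoproteins, and STARD4, a soluble carrier of cholesterol. VLDLR had log2 ratios of 0.14 and -0.02. STARD4 had 0.32 and -0.48, the widest gap between hybridizations in the set at 0.79, so neither gene had a direction.

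**Figure D3:**
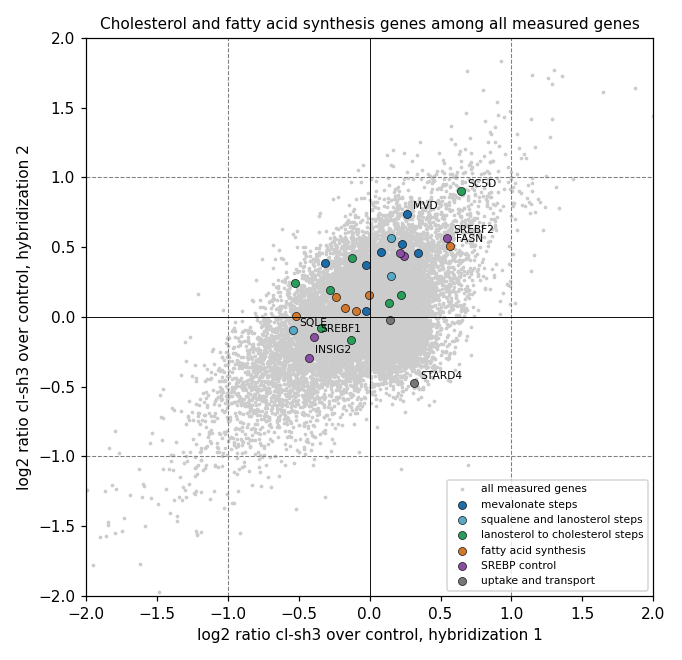
Log2 ratio of cl-sh3 over control in hybridization 1 (horizontal) and hybridization 2 (vertical) for all 16153 measured genes (grey) and the 31 cholesterol and fatty acid synthesis genes (coloured by role), with dashed lines at 2-fold. The coloured points lie inside the cloud of all genes, and 19 grey genes lie outside the axes. Above the horizontal zero line lie 24 coloured points, beside 50.9% of all genes.

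Promoters were examined as a description of what the set shares beyond its function. RefSeq promoter sequences of GRCh38.p14, from 250 bases before to 50 bases after the transcription start, were matched by symbol for 28 of the 32 genes, among them ACLY, whose expression was not measured. Those of ACAT2, FASN, FDFT1 and SQLE were not used here. Letters were searched on both strands, and overlaps between different motifs were allowed.

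The GC box letters GGGCGG were in 26 of the 28 promoters (92.9%), beside 44.6% of all 27305 promoters, and the CCAAT box letters CCAAT were in 17 (60.7%), beside 35.7%. The larger set also holds promoters of noncoding genes. GC boxes bind SP1 and CCAAT boxes bind NF-Y, which are known partners of SREBP. Of the 28 promoters, 11 held at least 2 CCAAT boxes before the start. The same share was not counted over all promoters, so this count does not set the genes apart.

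The sterol regulatory element letters TCACNCCAC were in 1 promoter, that of SREBF2 (3.57%), beside 1.15% of all promoters. The E-box letters CACGTG were in 4 promoters (14.3%), those of INSIG1, LSS, SC5D and SCAP, beside 7.43% of all. The letters TGTGGT, the core that RUNX proteins bind, were in 4 as well (14.3%), those of LSS, MVD, SCAP and SCD, beside 13.1% of all, a share near the background. A match to letters in this window is not a binding site, and the search says nothing of sites written differently or lying elsewhere.

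The promoters of SREBF2 and SREBF1 are shown because these paralogs lay on opposite sides of 0 on their brightest probes, and that of SC5D because this gene had the largest ratio. Each runs 5′ to 3′ over the 250 bases before the start on the gene's own strand, and capitals mark TCACNCCAC and CCAAT on either strand. They cover chr22:41832855-41833104 (plus strand) for SREBF2, chr17:17836987-17837236 (minus strand) for SREBF1 and chr11:121292521-121292770 (plus strand) for SC5D.
SREBF2: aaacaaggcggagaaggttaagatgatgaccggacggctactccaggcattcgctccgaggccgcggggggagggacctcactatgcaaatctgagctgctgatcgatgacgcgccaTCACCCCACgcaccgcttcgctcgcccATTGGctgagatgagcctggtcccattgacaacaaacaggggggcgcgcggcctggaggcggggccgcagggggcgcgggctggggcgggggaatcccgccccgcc
SREBF1: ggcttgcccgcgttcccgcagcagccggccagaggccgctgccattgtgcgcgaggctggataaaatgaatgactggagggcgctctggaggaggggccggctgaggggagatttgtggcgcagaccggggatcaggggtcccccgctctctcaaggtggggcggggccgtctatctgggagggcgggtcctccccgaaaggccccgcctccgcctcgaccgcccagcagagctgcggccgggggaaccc
SC5D: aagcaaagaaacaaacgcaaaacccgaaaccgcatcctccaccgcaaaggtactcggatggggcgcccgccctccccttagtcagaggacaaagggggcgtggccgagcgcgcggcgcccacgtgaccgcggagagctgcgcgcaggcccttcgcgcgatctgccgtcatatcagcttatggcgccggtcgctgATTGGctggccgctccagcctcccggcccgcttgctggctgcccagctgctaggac
In SREBF2 the sterol regulatory element letters begin at position -133 from the start and a CCAAT box at -106. SC5D holds a CCAAT box at -56, and SREBF1 holds neither set of letters.

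Other lipid genes lay lower than the synthesis set. The comparison used 5 lists with 54 genes, of which 52 were measured. Their median log2 ratio was -0.10, with 12 genes (23.1%) higher and 20 (38.5%) lower in both hybridizations, and 0 at least 2-fold changed. Over all genes the shares were 30.9% higher and 28.4% lower, and 33.9% of the bright genes were lower. The median of the other lipid genes was -0.13 in hybridization 1 and -0.01 in hybridization 2, where the synthesis set had -0.01 and 0.19. The difference between the sets has no test in a single pair of clones.

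The lists that lay lowest were the isoprenoid branch, which feeds farnesyl diphosphate into protein prenylation, dolichol and ubiquinone, and the genes of SREBP processing and sterol sensing. The isoprenoid branch had a median of -0.25 over 8 genes, with 2 (25%) higher and 4 (50%) lower in both hybridizations. SREBP processing and sterol sensing had -0.21 over 10 genes, with 3 (30%) higher and 5 (50%) lower. Sterol transport, storage and efflux had -0.18 over 8 genes, with 0 higher and 3 (37.5%) lower. Fatty acid oxidation had -0.06 over 10 genes, with 1 (10%) higher and 4 (40%) lower. Fatty acid activation, elongation and supply had 0.04 over 16 genes, with 6 (37.5%) higher and 4 (25%) lower. Over all genes 30.9% were higher and 28.4% lower in both, and 33.9% of the bright genes were lower in both. In lists this small a single gene moves the share widely, so the counts do not set these lists apart.

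GPAM, the acyltransferase that begins glycerolipid synthesis and a known SREBP-1 target, had log2 ratios of -1.25 and -0.68, the lowest mean of these genes. RNF139, a sterol-responsive ubiquitin ligase, had -0.40 and -1.06, and ACADM, which oxidizes medium-chain fatty acids, had -0.74 and -0.61. At the other end TECR, the reductase of fatty acid elongation, had 0.72 and 0.30. SLC25A1, which exports the citrate that feeds acetyl-CoA synthesis, had 0.35 and 0.48, and NR1H2, a receptor for oxysterols, had 0.59 and 0.20. GPAM and ACADM were the only genes of these lists to reach 1.5-fold in both hybridizations, both lower, which is 2 of 52 beside 2.6% of all genes.

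**Figure D4:**
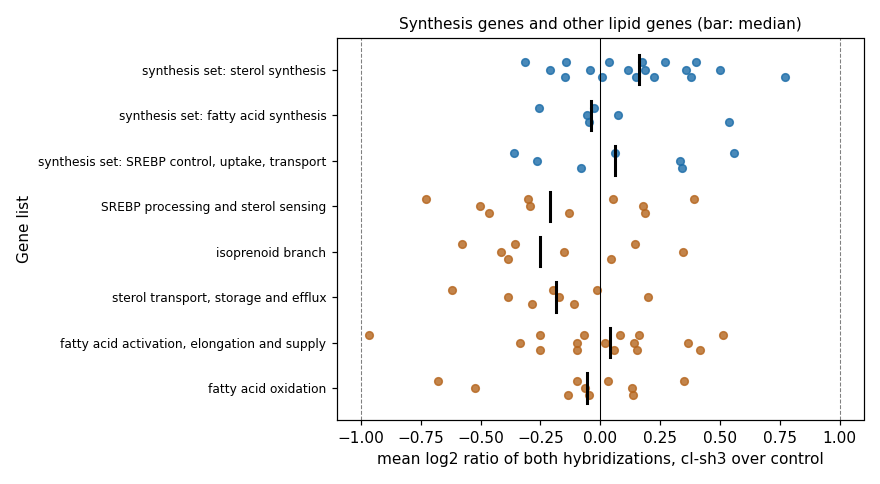
Mean log2 ratio of cl-sh3 over control per gene, for 3 subsets of the cholesterol and fatty acid synthesis set (blue) and 5 lists of other lipid genes (brown), with bars at the medians and dashed lines at 2-fold. The sterol synthesis enzymes have a median of 0.16, the fatty acid enzymes -0.04, and 4 of the 5 other lists have medians below 0.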

How the data were processed

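RNA from each clone was labelled with Cy3 and Cy5 and hybridized with reversed dyes. The authors deposited spot intensities that are not normalized, with local backgrounds and flags, read by Feature Extraction 10.5.1.1 per the file headers (8.5.1.1 in the submitters' processing notes), together with log10 ratios (Cy5 over Cy3) from the same software. The deposited table of log10 ratios equals it within 0.00245 and 0.00500. The study's text names no normalization.

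Median pixel intensities were used in place of the planned means, which were not used here. The normexp method of limma 3.58.1 (R 4.3.3) with offset 50 removed the background. Control spots were then dropped, 153 and 144 outlier spots were set aside by their flags, and loess was applied within each array. Repeated spots were averaged per probe, and each ratio was expressed as log2 of cl-sh3 over control. A probe needed 1 RNA or more well above background (50% or more of its spots) in both hybridizations, which left 36060 of 41000. Slide could not serve as a block, because both clones share 1 slide. The number of arrays limits the precision.

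Gene symbols came from a RefSeq table of GRCh38.p14, which held 18023 of 18715 RefSeq accessions among 32890 in all. RUNX2 was named through a supplementary list of the study, from which no value was taken. Gene coordinates are not given, because the array design follows another build. The promoter coordinates are those of the sequence table.

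Members, lists and rules were chosen with earlier results of these data known. Full values are given for members at least 1.5-fold changed the same way in both hybridizations and for the genes of SREBP control. MVD, FDPS, SQLE and FASN are given in full outside this rule, after their values were seen. Of the other lipid genes, the 3 highest and the 3 lowest by mean ratio are named. Some genes of these routes are not reported here. The normalization and the 2-fold rule were run on simulated data with planted changes larger than those of the members. That run therefore says nothing of differences as small as theirs. Alternatives were offset 0, uncorrected background, centring on the median, flagged spots kept, no detection filter, both RNAs required, the software's log ratios, the deposited ratios, the mean of all probes and each hybridization alone. Python 3.11.15, numpy 2.4.6, pandas 2.3.3 and matplotlib 3.10.9 were used for counts and plots.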

Additional observations from a re-analysis of the deposited data

How the results depend on the processing

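No cholesterol or fatty acid synthesis gene was at least 2-fold changed under any alternative, each hybridization alone included. The count of members higher in both hybridizations was 13 to 17 under the 9 alternatives that use both, where 30.1% to 36.2% of all genes were higher. The count lower in both was 3 with the mean of all probes, beside 29.7% of all genes. Under the other alternatives that use both it was 5 or 6, beside 25.1% to 29.6% of all genes. A single hybridization asks only for the sign in that one. In hybridization 1 alone 15 members were higher, beside 51.6% of all genes, and 16 lower, beside 48.4%. In hybridization 2 alone 24 were higher, beside 50.9%, and 7 lower, beside 49.1%. The count at least 1.5-fold changed, 1 as reported, was 2 with offset 0 (SC5D and FASN), 2 with median centring (SC5D and SREBF2), 0 with the mean of all probes, and 1 to 2 in single hybridizations. Of the 52 other lipid genes, 1 was at least 2-fold changed in each hybridization alone, GPAM in hybridization 1 and RNF139 in hybridization 2. Over all 16153 genes, 54 were at least 2-fold higher and 238 lower in hybridization 1 alone. In hybridization 2 alone these counts were 101 and 116. The mean log2 ratio kept its sign under the 9 alternatives for 27 members, and did not for ACACA, FADS2, SCD and TM7SF2. Among those that kept it is IDI1, whose means ran only from 0.005 to 0.12. All 9 alternatives reuse the same 2 hybridizations, and the same count was not made over all genes. The 27 therefore do not set the members apart. Over all genes the software's log ratios gave 46 at least 2-fold higher and 116 lower, where 22 and 83 are reported. The median of the set was -0.01 in hybridization 1 and 0.19 in hybridization 2, so its direction rests on hybridization 2. The causes were not tested. No paired analysis was possible because both hybridizations hold the same pair of RNAs. With 1 replicate and 1 clone per group, variation between clones, cultures and shRNAs was not measured. The mean log2 ratio of FASN, a dim gene, was 0.41 without background correction, 0.62 with offset 0 and 0.63 with the software's log ratios.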
